A study of Mus musculus with 8 samples.

Results

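The genes described here encode the IκB kinase (IKK) complex and the kinases that act on it or beside it. They were found by their Ensembl identifiers in a table of raw counts from long-term hematopoietic stem cells (LT-HSCs), and all 9 were found among its 55487 genes. *Chuk*, *Ikbkb* and *Ikbkg* encode the IKK complex itself, *Ikbke* and *Tbk1* the IKK-related kinases, *Map3k14* the kinase NIK, and *Map3k7*, *Tab1* and *Tab2* the TAK1 kinase and its partners. Each gene passed the filter on low counts and was tested among 20610 genes.

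The samples were 8 libraries of 500 LT-HSCs each, sorted as LSK CD48-CD150+ cells from fetal liver at E14.5, of *IκBα* WT (n = 3), HET (n = 3) and KO (n = 2) embryos. The KO allele is *Nfkbia* tm1Bal, a targeted germline knockout, so that every cell of a KO embryo lacks it. The methods describe crosses in which parents of both sexes were *Gfi1:tomato* and/or *IκBα* HET animals, and a reporting form also names the CDI-IGS wild type strain among the parents. The background of each single embryo is not given in the sources used here. WT1, WT2 and HET1 came from male embryos and are labelled as total RNA, whereas WT3, HET2, HET3, KO1 and KO2 came from female embryos and are labelled as polyA RNA. Sex and the molecule label cannot be told apart, and no KO library is male. The methods name 1 extraction protocol for all libraries and state that a further KO sample was discarded for its sequencing quality. The question addressed was whether the mRNAs of these kinases and their partners differed in level when IκBα was missing.

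In resting cells IκBα holds NF-κB dimers in the cytoplasm. In the canonical pathway TAK1, activated by its partner TAB1 and recruited by TAB2 to ubiquitin chains at active receptors, phosphorylates and activates the IKK complex, whose subunit IKKβ then phosphorylates IκBα and marks it for degradation. In the non-canonical pathway NIK activates IKKα, which leads to the processing of p100 to p52. TBK1 and IKKε resemble the IKK catalytic subunits but act mainly on interferon regulatory factors downstream of sensors of foreign nucleic acid. All these proteins are controlled largely by phosphorylation, ubiquitination and degradation, so that an mRNA level is not a measure of kinase activity.

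The libraries held 17895973 to 21720972 reads counted on genes. Levels are given as CPM, counts per 1000000 reads after TMM scaling, and 3 reads, taken as the smallest level the depth can show, correspond to 0.125 to 0.178 CPM. The deleted gene, *Nfkbia*, had 1 read in KO1, 0 reads in KO2 and between 14.4 and 67.7 CPM in the 6 other libraries. The sum of 9 LT-HSC markers was 1733, 1790 and 656.4 CPM in WT1, WT2 and HET1, 329.2, 616.3 and 280.3 CPM in WT3, HET2 and HET3, and 1649 and 1090 CPM in KO1 and KO2. Thus the 4 libraries with the highest marker level were WT1, WT2 and both KO libraries. Markers of other fetal liver cells also varied, with 5 hepatocyte genes summing to 6.26 to 1132 CPM and 6 erythroid genes to 530.3 to 8547 CPM. The hepatocyte sum was highest in WT3 and HET3, the erythroid sum was highest in HET1, and *Cd48*, whose protein the sort gated out, was at 45.8 to 89.1 CPM in every library. KO1 and KO2 differed from each other, with hepatocyte sums of 6.26 and 210.5 CPM and erythroid sums of 542 and 2102 CPM. Their sums of 4 megakaryocyte markers were 1008 and 106.3 CPM. In such bulk samples fewer cells of a type and less RNA per cell cannot be told apart. Nothing in the labels ties a library to a separate litter or culture, so the p-values measure the spread between these samples only.

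Per kilobase of the principal transcript, *Tbk1* was the most abundant of the 9 genes with 28.9 ± 9.16 CPM per kb (SD, n = 8 libraries). It was followed by *Chuk* with 21.7 ± 6.44, *Ikbkb* with 20.1 ± 2.94 and *Tab2* with 17.1 ± 5.71 CPM per kb. Each of these 4 genes overlapped its neighbour in this order within 1 SD, whereas *Tab2* and the next gene did not. *Tab1* with 9.28 ± 1.20 and *Map3k7* with 8.76 ± 1.95 CPM per kb came next and did not differ beyond their spread. *Ikbkg* with 5.25 ± 0.450 and *Ikbke* with 3.53 ± 2.51 CPM per kb followed, the latter ranging from 0.352 to 6.26, so that *Ikbke* overlapped both *Ikbkg* and the last gene. *Map3k14* was the least abundant, with 0.633 ± 0.530 CPM per kb. The order depends on the length used: dividing by all exons of a gene merged, which come to 19078 bases for *Ikbkb* against 3580 for its transcript, placed *Ikbkb* seventh, and 4 of the 9 genes kept their rank.

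The 9 genes fell into different patterns over the libraries. *Map3k14* and *Ikbke* varied most, their highest library exceeding the lowest by 18.9-fold and 17.8-fold. *Tab2*, *Tbk1*, *Chuk* and *Map3k7* varied by 3.10-, 2.35-, 2.22- and 1.91-fold, and *Ikbkb*, *Tab1* and *Ikbkg* by 1.51-, 1.42- and 1.30-fold.

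**Figure D1:**
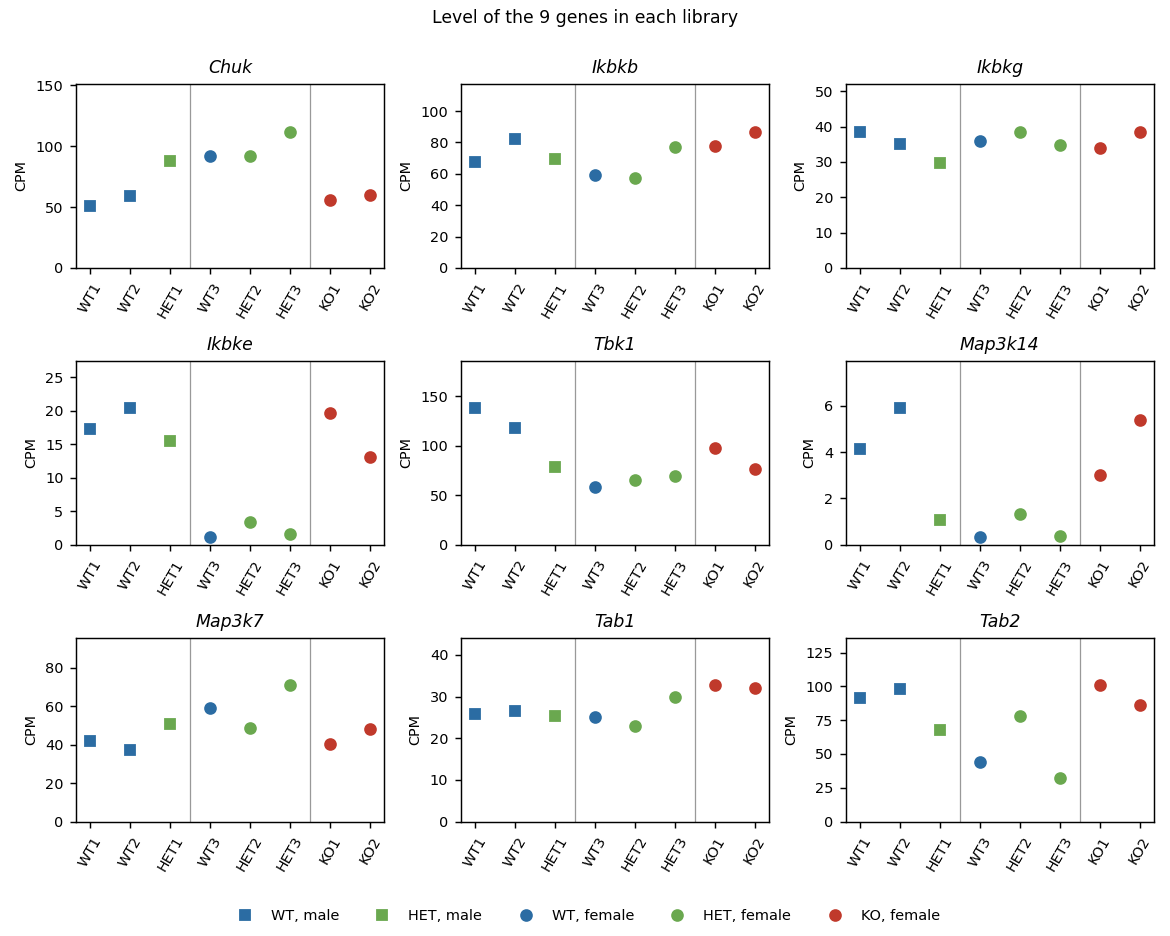
Level of each gene in CPM (linear axis from 0) in each of the 8 libraries, with squares for male and circles for female embryos and colors for the genotype. *Ikbke* was at 1.15 to 3.38 CPM in the 3 female WT and HET libraries and at 13.0 to 20.3 CPM in the 5 others, whereas *Ikbkg* stayed between 29.6 and 38.6 CPM.

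The IKK complex was described first. *Chuk* (chr19:44073335-44107480, minus strand, GRCm38) encodes IKKα, a catalytic subunit and the one that serves the non-canonical pathway. It was at 50.5, 58.7 and 88.1 CPM in WT1, WT2 and HET1, at 92.0, 91.9 and 112 CPM in WT3, HET2 and HET3, and at 55.9 and 60.1 CPM in KO1 and KO2. Both KO libraries lay below all 3 female WT and HET libraries but within the range of the male ones. With sex in the model the log2 fold change of KO against WT/HET was -0.77 (SE 0.248, unadjusted p = 0.0141, adjusted p = 0.153, edgeR), and against the female libraries alone it was -0.81 (SE 0.166, adjusted p = 0.118, edgeR). DESeq2 with apeglm gave -0.68 with an adjusted p of 0.0395, short of the fold threshold. WT1, WT2, KO1 and KO2, the libraries with the highest LT-HSC marker sum, were also the 4 lowest for *Chuk* (50.5 to 60.1 CPM against 88.1 to 112), and the part of cell composition in the difference was not tested.

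*Ikbkb* (chr8:22659212-22706589, minus strand) encodes IKKβ, the subunit that phosphorylates IκBα. It was at 67.6, 81.9 and 69.2 CPM in the male WT1, WT2 and HET1, at 59.3, 57.5 and 77.1 CPM in the female WT3, HET2 and HET3, and at 77.5 and 86.9 CPM in KO1 and KO2. The KO libraries lay just above the female references, HET3 being close to KO1, and overlapped the male ones. The log2 fold change of KO against WT/HET was 0.35 (SE 0.185, adjusted p = 0.265, edgeR).

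*Ikbkg* (chrX:74393290-74453854, plus strand) encodes NEMO, the regulatory subunit that binds ubiquitin chains. It was at 38.6, 35.2 and 29.6 CPM in WT1, WT2 and HET1, at 35.9, 38.5 and 34.9 CPM in WT3, HET2 and HET3, and at 33.9 and 38.5 CPM in KO1 and KO2. These ranges overlapped fully. Its log2 fold change of -0.0084 (SE 0.187, adjusted p = 0.987, edgeR) took the other sign when sex was left out of the model (0.030), with WT alone as the reference (0.020), and without KO1 (0.080) or HET2 (0.039), so no direction was given. It shares 418 exon bases with *G6pdx* on the opposite strand, and since the strand setting of the counting is not given in the sources used here, reads in that stretch are uncertain.

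The IKK-related kinases followed. *Ikbke* (chr1:131254343-131279606, minus strand) encodes IKKε, whose mRNA is inducible in many cell types. It was at 17.2, 20.3 and 15.5 CPM in the male WT1, WT2 and HET1 (291 to 487 reads). It was at 1.15, 3.38 and 1.60 CPM in the female WT3, HET2 and HET3 (22 to 67 reads), and at 19.7 and 13.0 CPM in KO1 and KO2 (402 and 265 reads). The female WT and HET libraries thus stood apart from the 5 others, and the KO libraries lay with the male ones. The mean of the KO libraries was 8.01-fold that of the female references, and 0.925-fold that of the male references. The LT-HSC marker sum was 1090 to 1649 CPM in KO against 280.3 to 616.3 CPM in the female references. The sum of 4 endothelial markers was 41.5 to 66.4 CPM against 3.86 to 20.99 CPM. The part of cell composition in the *Ikbke* difference was not tested.

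With sex in the model the log2 fold change of *Ikbke* in KO against WT/HET was 2.99 (SE 0.462, unadjusted p = 0.000156, adjusted p = 0.148, edgeR). Because both KO libraries are female, this model compares them in effect with the female references, and the fit of female libraries alone gave 2.94 (SE 0.545, adjusted p = 0.118, edgeR). Without sex in the model the difference in mean log2 CPM was 1.46, with a two-sided exact permutation p of 0.571 (smallest possible 0.0714). DESeq2 with apeglm, the approach of the methods, gave a log2 fold change of 2.81 with an adjusted p of 1.47e-06. The edgeR call itself turned on the reference libraries, with an adjusted p of 0.04 and a log2 fold change of 3.58 without HET2, the female reference with the most *Ikbke*, and with 3.84 and an adjusted p of 0.0292 against WT alone.

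The promoter of *Ikbke*, from 250 bases before to 50 bases after the start site, is shown because this gene and *Map3k14* had the largest differences. The sequences are those of RefSeq on GRCm38.p6, printed 5′ to 3′ on the strand of the gene, with any match to the κB consensus on either strand in capitals. The *Ikbke* window is chr1:131279514-131279813, minus strand, with a GC content of 54%, and held no such match.
Ikbke: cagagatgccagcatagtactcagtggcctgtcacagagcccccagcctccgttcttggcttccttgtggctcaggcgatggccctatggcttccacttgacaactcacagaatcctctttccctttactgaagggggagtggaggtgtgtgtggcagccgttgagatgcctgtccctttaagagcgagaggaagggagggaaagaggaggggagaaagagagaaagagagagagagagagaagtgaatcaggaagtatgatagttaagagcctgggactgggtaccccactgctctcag

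*Tbk1* (chr10:121546455-121586787, minus strand) encodes TBK1, the constitutive relative of IKKε. It was at 137, 118 and 78.0 CPM in WT1, WT2 and HET1, at 58.5, 65.6 and 69.3 CPM in WT3, HET2 and HET3, and at 97.5 and 76.3 CPM in KO1 and KO2. All 3 female references lay below all 5 other libraries, and they also had the lowest LT-HSC and endothelial marker sums, whose part was not tested. The log2 fold change of KO against WT/HET was 0.43 with sex in the model (SE 0.242, adjusted p = 0.287, edgeR) and -0.014 without it, so its direction rested on the choice of reference. With sex in the model it was 0.24 without KO1 and 0.60 without KO2.

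*Map3k14* (chr11:103219762-103267472, minus strand) encodes NIK, the kinase of the non-canonical pathway, which is kept low in resting cells by continuous degradation of the protein. It was at 4.12, 5.89 and 1.06 CPM in WT1, WT2 and HET1 (88, 141 and 20 reads) and at 0.312, 1.31 and 0.356 CPM in WT3, HET2 and HET3 (6, 26 and 6 reads). In KO1 and KO2 it was at 3.03 and 5.41 CPM (62 and 110 reads). The KO libraries lay above all 3 female references, the male HET1 lay within the range of the female references, and the counts are low throughout. The mean of the KO libraries was 6.40-fold that of the female references and 1.14-fold that of the male references.

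The log2 fold change of *Map3k14* in KO against WT/HET was 2.66 (SE 0.872, unadjusted p = 0.015, adjusted p = 0.154, edgeR). DESeq2 with apeglm shrank it to 1.89 and gave an adjusted p of 0.0319. With single libraries left out, the edgeR fold change ranged from 2.18 without KO2 to 3.64 without HET2. The 4 libraries with the most *Map3k14* (3.03 to 5.89 CPM, against 0.312 to 1.31 in the others) were the same 4 that had the highest LT-HSC marker sum, and the part of that difference was not tested. A noncoding gene on the same strand, *1700028N14Rik*, shares 135 exon bases with *Map3k14* but had 13 reads over all libraries. The *Map3k14* promoter window is chr11:103267352-103267651, minus strand, with a GC content of 65%, and also held no match to the κB consensus.
Map3k14: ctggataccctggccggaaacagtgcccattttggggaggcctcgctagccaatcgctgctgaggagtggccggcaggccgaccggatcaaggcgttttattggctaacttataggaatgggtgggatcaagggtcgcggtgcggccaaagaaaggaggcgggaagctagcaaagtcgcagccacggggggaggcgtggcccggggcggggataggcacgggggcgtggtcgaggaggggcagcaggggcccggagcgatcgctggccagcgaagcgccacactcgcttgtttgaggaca

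The genes of the TAK1 complex differed among themselves. *Map3k7* (chr4:31964097-32023467, plus strand) encodes TAK1. It was at 41.7, 37.1 and 50.8 CPM in WT1, WT2 and HET1, at 59.3, 48.8 and 70.9 CPM in WT3, HET2 and HET3, and at 40.3 and 48.4 CPM in KO1 and KO2. The KO libraries lay below the female references, KO2 being close to HET2, and among the male ones. The log2 fold change of KO against WT/HET was -0.43 (SE 0.223, adjusted p = 0.255, edgeR). As for *Chuk*, the 4 libraries with the highest LT-HSC marker sum were the 4 lowest, at 37.1 to 48.4 CPM.

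*Tab1* (chr15:80133127-80161707, plus strand) encodes an activating partner of TAK1. It was at 25.7, 26.4 and 25.3 CPM in WT1, WT2 and HET1, at 25.0, 23.0 and 29.8 CPM in WT3, HET2 and HET3, and at 32.7 and 32.0 CPM in KO1 and KO2. *Tab1* was the only gene of the 9 whose KO libraries both lay above all 6 others, female and male. The difference was small, with a mean of 1.25-fold and a log2 fold change of 0.32 (SE 0.190, unadjusted p = 0.131, adjusted p = 0.313, edgeR). The two-sided exact permutation test gave a p of 0.0714, the smallest possible for 2 libraries against 6.

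*Tab2* (chr10:7905653-7956230, minus strand) encodes the adaptor that links TAK1 to ubiquitin chains. It was at 91.5, 97.7 and 67.8 CPM in WT1, WT2 and HET1, at 44.4, 78.3 and 32.6 CPM in WT3, HET2 and HET3, and at 101 and 85.9 CPM in KO1 and KO2. KO lay above the female references, with HET2 the closest, and on either side of the male WT libraries. The log2 fold change of KO against WT/HET was 0.85 (SE 0.340, unadjusted p = 0.0356, adjusted p = 0.176, edgeR). It was 1.28 without HET2 (adjusted p = 0.0433, edgeR), 0.73 without WT3 or without KO1 and 0.59 without HET3 (adjusted p = 0.358, 0.6 and 0.359, edgeR). WT1, WT2, KO1 and KO2 were again the 4 highest libraries, at 85.9 to 101 CPM.

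RefSeq promoter windows were found for 7 of the 9 genes, 11 windows in all, and none was found for *Ikbkb* and *Tab1*. Of the 11 windows 4 belong to *Ikbkg* and 2 to *Tab2*, so shares of windows are not shares of genes. The κB consensus was present in 1 of the 11 windows, that of *Map3k7*, and in 4.51% of the 32851 windows of all genes. The match, in capitals in the sequence, begins 92 bases before the start site and reads in the consensus direction on the opposite strand. The window is chr4:31963857-31964156, plus strand, with a GC content of 69%. The interferon-type motif GAAANNGAA, searched on both strands, was in 0 of the 11 windows and in 8.56% of all windows. The GC box GGGCGG was in 6 of the 11, in windows of *Chuk*, *Ikbkg*, *Map3k7*, *Map3k14*, *Tab2* and *Tbk1*, and in 35.7% of all. These are matches of letters and not evidence of binding.
Map3k7: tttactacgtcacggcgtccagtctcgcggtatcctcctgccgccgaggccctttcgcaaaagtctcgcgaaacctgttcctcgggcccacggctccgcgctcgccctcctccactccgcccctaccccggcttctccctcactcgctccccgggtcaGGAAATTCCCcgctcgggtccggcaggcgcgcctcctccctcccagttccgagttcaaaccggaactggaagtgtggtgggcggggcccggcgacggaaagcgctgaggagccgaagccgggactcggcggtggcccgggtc

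In KO against WT/HET as a whole, 0 of the 9 genes passed the edgeR threshold (adjusted p under 0.05, log2 fold change beyond 1 in either direction). Over all genes this share was 0%, with 0 of 20610 called. At an unadjusted p under 0.05 there were 4 of the 9, with *Ikbke*, *Map3k14* and *Tab2* higher and *Chuk* lower, against 5196 of all genes (25.2%). The log2 fold changes of all 9 had a median of 0.35, where all genes tested had one of 0.13. With DESeq2 and apeglm 2 of the 9 were called, *Ikbke* and *Map3k14*, both higher, where 1457 of all genes (7.07%) were. Leaving out HET2 gave edgeR calls for *Ikbke* and *Tab2* and for 730 of all genes, and leaving out HET1 gave 0 of the 9 and 8 of all genes. With 1 KO library left out, 2 of the 9 had an unadjusted p under 0.05, *Ikbke* and *Map3k14* without KO1 and *Chuk* and *Ikbke* without KO2, where 7.91% and 25.8% of all genes did. Without sex in the model 0 of the 9 and 2% of all genes did, and the log2 fold changes came down to 0.73 for *Ikbke*, 0.95 for *Map3k14*, 0.44 for *Tab2*, -0.50 for *Chuk* and -0.21 for *Map3k7* (unadjusted p = 0.134 to 0.486, edgeR).

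Read from the levels alone, the KO libraries both lay above the 6 WT and HET libraries for 1 of the 9 genes, *Tab1*, and below them for 0. Over all genes these shares were 3.05% and 1.79%. Against the 3 female references they lay above for 6 genes and below for 2, the exception being *Ikbkg*. Over all genes the corresponding shares were 27.1% and 21.4%, so that separation from the female references was common. In the log2 values that the authors corrected for sex, both KO libraries lay above the 6 others for *Ikbke*, *Map3k14*, *Tab1* and *Tab2* and below for *Chuk* and *Map3k7*, where 19.3% of all genes lay above and 16.5% below. In that table *Ikbke* was at 8.41 to 8.80 in the 6 references and at 9.98 and 9.63 in KO1 and KO2.

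**Figure D2:**
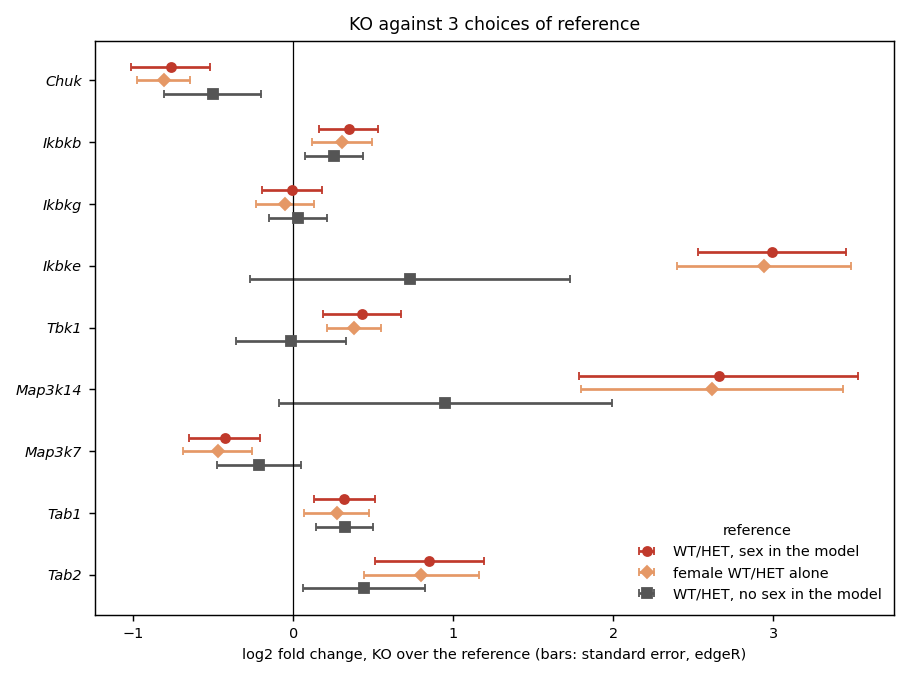
Log2 fold change of KO over the reference for each gene, with the standard error from edgeR as bars, for WT/HET with sex in the model, for the female WT/HET libraries alone, and for WT/HET without sex in the model. *Ikbke* stood at 2.99 and 2.94 in the first 2 fits and at 0.73 in the last, while *Ikbkg* stayed close to 0.

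The female and male libraries were compared among WT and HET, which leaves the KO libraries out. Here 0 of the 9 genes passed the edgeR threshold, as 3 of 20585 genes did (0.0146%). At an unadjusted p under 0.05 there were 3 of the 9, against 22.7% of all genes. *Ikbke* was lower in the female libraries by -3.30 on the log2 scale (SE 0.531, adjusted p = 0.176, edgeR) and *Tbk1* by -0.67 (SE 0.246, adjusted p = 0.194, edgeR). *Chuk* was higher by 0.48 (SE 0.190, adjusted p = 0.207, edgeR). DESeq2 called 1 of the 9, *Ikbke* (log2 fold change -3.27, adjusted p = 2.48e-07), and 8.92% of all genes. For these 3 genes the female and male libraries did not overlap, *Chuk* lying above and *Ikbke* and *Tbk1* below. Over all genes 17.5% lay above and 21.1% below. The two-sided exact permutation p was 0.1 for each of the 3, the smallest possible for 3 libraries against 3.

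With the replicate number as a block, 0 of all genes were called and 1 of the 9, *Ikbke*, had an unadjusted p under 0.05, as 1.44% of all genes did. The labels do not say what this number stands for, so it is not an established pairing of the libraries. The block gave -2.72 for *Ikbke*, -0.55 for *Tbk1* and 0.10 for *Chuk* (adjusted p = 1 for each, edgeR). Of the same-numbered libraries only WT2 and HET2 differ in sex, so these values rest on that pair, which differs in genotype too. Single libraries decided part of this comparison. Without any 1 of the WT libraries, *Ikbke* alone of the 9 had an unadjusted p under 0.05, where 5.29% to 11.2% of all genes did. The fold change of *Chuk* ranged from 0.21 without WT3 to 0.81 without HET1, and that of *Tbk1* was -0.21 without WT3. Without HET2, edgeR called *Ikbke*, *Map3k14* and *Tab2*, 3 of the 9 genes, and 2999 of all genes, and without HET1 it called 2 of the 9, *Ikbke* (-3.97, adjusted p = 0.038) and *Tbk1* (-1.07, adjusted p = 0.0383), and 1482 of all genes. The 3 female references also had the lowest LT-HSC marker sums (280.3 to 616.3 CPM against 656.4 to 1790 in the male references) and the highest hepatocyte sums (145.5 to 1132 CPM against 7.90 to 77.6). Sex and the molecule label cannot be told apart here, and the part of the makeup of the sorted cells was not tested.

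Loss of a single *Nfkbia* allele was examined in HET against WT with sex in the model. Of the 9 genes 0 passed the edgeR threshold and 0 had an unadjusted p under 0.05, against 0% and 3.63% of all genes (0 and 747 of 20585). DESeq2 called 0 of the 9 and 0.311% of all genes. Leaving out 1 library gave up to 2 of the 9 at an unadjusted p under 0.05, *Chuk* and *Tbk1* without WT3 and *Chuk* and *Tab2* without HET2, where 14.1% and 14.2% of all genes had such a p. *Chuk* was higher in HET than in WT in each of the 3 same-numbered pairs, as was *Map3k7*, while *Tab2* was lower in each and the other 6 genes went both ways. Of these, *Map3k7* had a log2 fold change of 0.19 (SE 0.211, adjusted p = 0.962, edgeR) and *Tab2* one of -0.08 (SE 0.388, adjusted p = 0.996, edgeR). The share of all genes that went the same way in all 3 pairs was not counted, so these genes cannot be set against it. The pair of WT2 and HET2 also differs in sex and molecule label. In each pair the LT-HSC and endothelial marker sums were lower and the erythroid sum was higher in HET, and their part was not tested. The log2 fold change was 0.42 for *Chuk* (SE 0.190, adjusted p = 0.931, edgeR), 0.54 with the replicate block (SE 0.236, adjusted p = 0.876, edgeR), 0.14 without HET1 and 0.69 without WT3. It was 0.38 for *Ikbke* (SE 0.517, adjusted p = 0.969, edgeR). Without sex taken into account *Ikbke* ran the other way, with means of 6.82 CPM in HET and 12.9 CPM in WT and a difference in mean log2 CPM of -0.75. The log2 fold change of *Map3k14* was -0.52 (SE 1.29, adjusted p = 0.987, edgeR), and it turned to 1.41 without HET1.

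Ratios of gene pairs within a library do not depend on the scaling between libraries. The log2 ratio per length of *Ikbke* to *Tbk1*, the IKK-related pair, was -3.09, -2.63 and -2.43 in WT1, WT2 and HET1, -5.66, -4.34 and -5.46 in WT3, HET2 and HET3, and -2.41 and -2.64 in KO1 and KO2. Both KO libraries lay above the female references and within or next to the male ones. For *Ikbkb* to *Chuk*, the catalytic pair of the IKK complex, it was 0.39, 0.45 and -0.38 in WT1, WT2 and HET1, -0.66, -0.71 and -0.57 in WT3, HET2 and HET3, and 0.44 and 0.50 in KO1 and KO2. IKKβ mRNA thus exceeded IKKα mRNA per length in WT1, WT2 and both KO libraries, and the reverse held in the other 4, an order that rests on the transcript lengths used. The mean ratio of *Map3k14* to *Map3k7* was -3.00 in KO, -6.11 in the female and -3.38 in the male references.

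The ratio of *Ikbkg* to *Chuk* was -1.63 in KO, -2.38 in the female and -1.85 in the male references. Its values in KO1 and KO2 lay above the female references and inside the range of the male ones. The ratio of *Tab1* to *Tab2* overlapped between KO (-1.06 and -0.86) and the female references (-1.20 to 0.44). All 5 ratios overlapped between KO and the 6 references, and 4 of the 5 lay above the 3 female references. The share of all gene pairs that do so was not counted. Of single genes, 27.1% lay above these references and 21.4% below. The direction also follows from the pairs chosen, since *Chuk* and *Map3k7*, both below the female references in KO, were used as denominators.

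**Figure D3:**
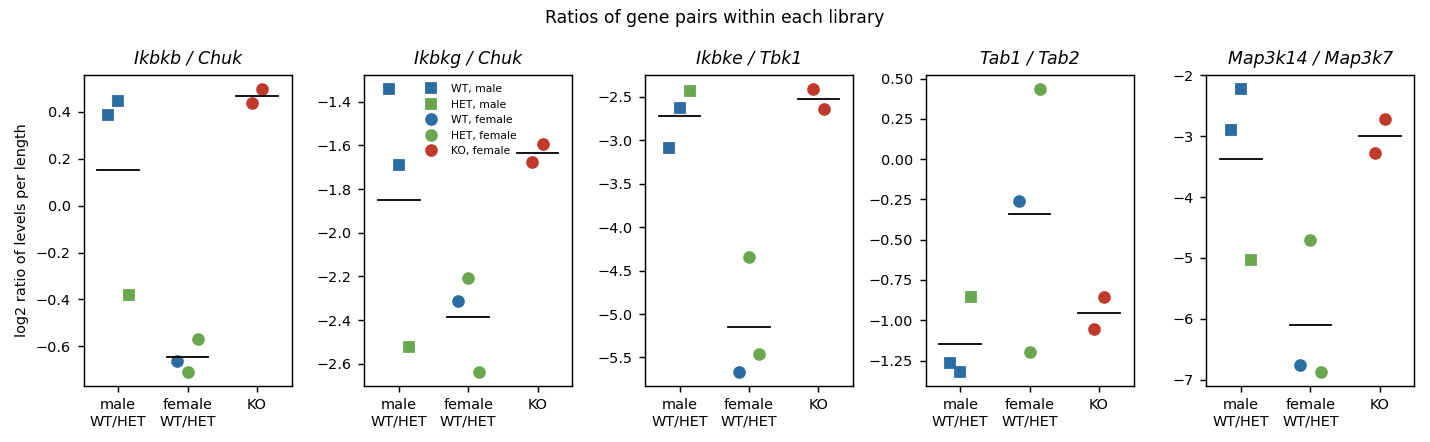
Log2 ratio of the levels per length of 5 gene pairs in each library, grouped as male WT/HET, female WT/HET and KO, with group means as lines. The *Ikbke* to *Tbk1* ratio averaged -2.53 in KO, -5.15 in the female and -2.72 in the male references.

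**Figure D4:**
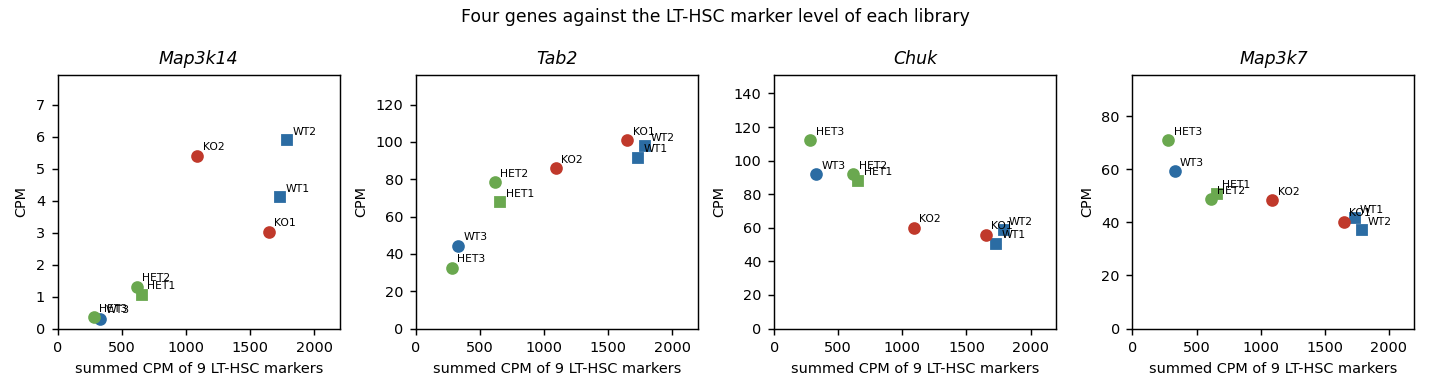
CPM of *Map3k14*, *Tab2*, *Chuk* and *Map3k7* against the summed CPM of 9 LT-HSC markers in each library, both axes linear from 0. WT1, WT2, KO1 and KO2 have the highest marker sums (1090 to 1790 CPM) and lie highest for *Map3k14* and *Tab2* and lowest for *Chuk* and *Map3k7*. For *Map3k7*, KO2 lies close to HET2.

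For these 4 genes, then, the KO libraries sat beside WT1 and WT2, and the LT-HSC marker order and the gene order split the libraries in the same way. For *Map3k7* the split was close to a tie, with KO2 at 48.4 CPM (984 reads) and HET2 at 48.8 CPM (968 reads). The sum of 4 endothelial markers did so too, at 70.3, 79.9, 66.4 and 41.5 CPM in WT1, WT2, KO1 and KO2 against 29.7, 10.9, 20.99 and 3.86 CPM in HET1, WT3, HET2 and HET3, and its part in these differences was not tested. The share of all genes with this split was not counted, so the count of 4 genes cannot be set against it. For the other 5 genes the 4 libraries with the highest marker sum were mixed with the rest. *Tab1*, for instance, reached 25.7 CPM in WT1 and 26.4 CPM in WT2 against 32.7 CPM in KO1 and 32.0 CPM in KO2. For *Ikbke* and *Tbk1*, though, WT3, HET2 and HET3 were the lowest libraries (1.15 to 3.38 and 58.5 to 69.3 CPM). These libraries also had the lowest LT-HSC and endothelial sums, and the part of cell makeup in both genes was not tested.

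The genes most alike in pattern were sought by Pearson's r of log2 CPM over the 8 libraries among genes with a mean of at least 5 CPM, as a description, since the libraries share genotype, sex and makeup. For *Ikbke* they were *Sh3bp2* (r = 0.992), *Tmtc4* (r = 0.989) and *Zmiz1* (r = 0.988). For *Map3k14* they were *Mlxip* (r = 0.990), *Eef2k* (r = 0.984) and *Antxr2* (r = 0.981). The nearest to *Tbk1* were *Clip1*, *Osbpl9* and *Cln3* (r = 0.985 to 0.989). Such likeness was common, with 190 of 10098 genes over an r of 0.95 for *Ikbke*.

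*Tab2* had 535 genes over that r, led by *Myo5c*, *Plxnd1* and *Fmnl3* (r = 0.993 to 0.994). *Map3k7* had 320, among them *Zdhhc13* (r = 0.991) and *Slc35e2* (r = 0.990), and *Chuk* had 154, led by *Mrs2*, *Tmed2* and *Dnajb11* (r = 0.982 to 0.987). The genes with little variation had few or none. *Ikbkb* was near *Qpctl* (r = 0.972) and *Zscan18* (r = 0.927), *Tab1* to *Tsc2*, *Tbc1d10a* and *Ccdc97* (r = 0.917 to 0.932), and *Ikbkg* to *Pigv*, *Ctsl* and *Rhbdd3* (r = 0.892 to 0.911). By Spearman's rank correlation 5 of the 27 genes found in this way remained among the nearest 3.

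The pathway around the 9 kinases was read from 61 further genes in 6 lists, all of which were tested. The list medians given below compare with a median of 0.13 over all genes. Between female and male references the medians were -0.20, 0.14, -0.61, -0.69, -1.19 and -0.02 in the order of the lists below, against -0.16 over all genes. In KO against WT/HET 0 of the 61 passed the edgeR threshold, while 18 were higher and 7 lower at an unadjusted p under 0.05, where 25.2% of all genes were in either direction. DESeq2 with apeglm called 7 of the 61 higher and 1 lower, where it called 7.07% of all genes. The lower one was the deleted *Nfkbia* itself. Of the 11 other genes named from these lists, 7 (*Irak1*, *Map3k3*, *Tnip1*, *Tnip2*, *Relb*, *Ticam1* and *Irf7*) were highest in WT1, WT2, KO1 and KO2, the 4 libraries with the highest LT-HSC and endothelial marker sums, whose part in these differences was not tested. The share of all genes split in this way was not counted. The 11 were also named for a small unadjusted p in KO against WT/HET, so the count describes no trait of the lists.

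Of 16 other kinases and kinase adaptors, 6 were higher and 2 lower at an unadjusted p under 0.05, and their median log2 fold change was -0.06. *Irak1*, a kinase of the Toll-like receptor pathway, was at 50.2 to 59.5 CPM in the female references, 75.1 to 90.8 CPM in the male ones and 102.5 and 90.2 CPM in KO1 and KO2 (log2 fold change 0.82, adjusted p = 0.148, edgeR). *Map3k3*, encoding MEKK3, was at 5.16 to 15.2 CPM in the female references, 17.3 to 57.6 CPM in the male ones and 53.4 and 24.2 CPM in KO1 and KO2 (2.14, adjusted p = 0.151, edgeR). Of 13 adaptors and ubiquitin enzymes, 2 were higher and 0 lower at an unadjusted p under 0.05, and the median over all 13 was -0.08. They were *Birc2* (0.60, adjusted p = 0.155, edgeR) and *Birc3* (0.74, adjusted p = 0.198, edgeR), whose cIAP proteins take part in the degradation of NIK.

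Of 9 brakes on the pathway, 3 were higher and 1 lower at an unadjusted p under 0.05 (25.2% of all genes in either direction), and the median over all 9 was 0.59. *Tnip1* (1.67, adjusted p = 0.148, edgeR) and *Tnip2* (1.01, adjusted p = 0.148, edgeR), which encode partners of the inhibitor A20, had the smallest p. Of 9 NF-κB subunits and inhibitors, 4 were higher and 2 lower at an unadjusted p under 0.05, the deleted *Nfkbia* among the latter, and the median over all 9 was 1.29. *Relb*, the subunit that pairs with p52 at the end of the NIK pathway, was at 1.54 to 4.24 CPM in the female references, 4.15 to 13.9 CPM in the male ones and 18.2 and 14.7 CPM in KO1 and KO2 (2.65, adjusted p = 0.148, edgeR). Its KO libraries lay above all 6 others.

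Of 6 genes for targets and adaptors of TBK1 and IKKε, 3 were higher and 0 lower at an unadjusted p under 0.05 (25.2% of all genes in either direction), and the median over all 6 was 1.42. *Ticam1*, encoding the adaptor TRIF, was at 2.91 to 4.24 CPM in the female references, 5.32 to 6.10 CPM in the male ones and 9.20 and 10.2 CPM in KO1 and KO2 (1.44, adjusted p = 0.148, edgeR). *Irf7*, an interferon regulatory factor, was at 1.90 to 6.76, 10.5 to 27.1, and 14.4 and 12.9 CPM in the same order (1.55, adjusted p = 0.158, edgeR). *Ticam1* lay above all 6 references in KO, whereas *Irf7* lay among the male ones. Of 8 genes grouped with the kinases downstream of TAK1, 0 were higher and 2 lower at an unadjusted p under 0.05, and the median over all 8 was 0.15. *Map2k4* (-0.70, adjusted p = 0.18, edgeR) and *Mapk9* (-0.72, adjusted p = 0.18, edgeR), of the JNK pathway, were the lower ones.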

How the data were processed

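According to the methods the authors trimmed the reads with Trim Galore, aligned them to GRCm38 with STAR, kept unique alignments and counted reads per Ensembl gene. They deposited these raw counts, and also log2 values from the variance-stabilizing transformation of DESeq2, corrected for sex with limma. The submitters' processing notes name Trim Galore 0.6.6, STAR 2.7.8 and DESeq2 1.38.3. The overlap of libraries was read from both tables, and all tests used the counts.

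Symbols and positions were taken from GENCODE M21 (GRCm38), which named 55141 of the 55487 identifiers, and the transcript of each gene is its APPRIS principal one. Genes with a summed count of at least 10 were kept, 20610 over all 8 libraries and 20585 in the comparisons without KO. The counts were normalized by TMM, and edgeR 4.0.16 (quasi-likelihood test, legacy form) was run in R 4.3.3. P-values were adjusted by Benjamini-Hochberg over all genes tested, and genes were called at an adjusted p under 0.05 with a log2 fold change beyond 1 in either direction. The KO comparison used sex and KO as terms with WT and HET pooled, as in the methods. DESeq2 1.42.0, with apeglm 1.24.0 for KO, was the alternative. Log2 CPM used a prior count of 2, and CPM themselves carry none. Exact permutation tests over libraries were two-sided. The fit was also run on simulated data, whose outcome is not given here.

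The 9 genes, the pathway lists and the markers were chosen with earlier results of these data known. Named genes are the 9, *Nfkbia*, the 3 genes most alike to each and the 2 genes with the smallest unadjusted p in each pathway list. Some of these genes are not reported here. *Cd48* stands for cells outside the sort gate. Megakaryocyte, myeloid, lymphoid, endothelial and macrophage markers were summed to 23.1 to 1257, 128 to 865, 1.01 to 21.8, 3.86 to 79.9 and 16.2 to 111 CPM over the libraries, and *Cd3e* had at most 3 reads in any library. The sex labels fitted the sex-linked genes in all libraries. Same-numbered WT and HET libraries deviated together from their group means (r of 0.654, 0.488 and 0.77 over 10099 genes), where numbers 1 and 3 also share the sex. Libraries with different numbers were not compared in this way. The alternatives were other tools, normalizations, filters, references and covariates, a replicate block, and each library left out in turn. The merged exon length was added after seeing the data.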

Additional observations from a re-analysis of the deposited data

How the results depend on the processing

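Other settings gave 252 fold changes, for all 9 genes in KO against WT/HET, for *Chuk* and *Map3k14* in HET against WT, and for *Chuk*, *Ikbke* and *Tbk1* between female and male libraries. Of these, 233 kept their direction and their side of the threshold, 13 kept the direction and passed the threshold, and 6 changed sign. A gene left uncalled in both fits needed only the same sign to count among the 233. With sex in the model, leaving out a male reference could hardly move the KO fold changes, since both KO libraries are female. That of *Chuk* was -0.77 in the main fit, without WT1 and without WT2, so these fits are no check on it. The sign changed for *Ikbkg* in KO without sex in the model (0.030), with WT alone (0.020) and without 1 library (-0.10 to 0.080, without KO2 and KO1), for *Tbk1* in KO without sex in the model (-0.014), and for *Map3k14* in HET against WT without 1 library (-2.23 to 1.41, without WT3 and HET1).

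For KO against WT/HET, edgeR called 0 genes, DESeq2 without shrinkage 1825, DESeq2 with apeglm 1457, edgeR with no filter on low counts 1106, its version 4 form 1, and WT alone as the reference 662. Without 1 library it called 0 to 730 genes. Of the 9, DESeq2 called 2 with and without shrinkage, no filter 1, WT alone 1, and 0 to 2 without 1 library. At an unadjusted p under 0.05 the 4 (25.2% of all genes) became 0 without sex in the model (2% of all genes), 2 with HET alone (*Chuk* and *Ikbke*, 14.1%), 2 without KO1 (7.91%) and 2 without KO2 (25.8%). For HET against WT, DESeq2 called 64 genes, no filter 131, and 0 to 135 without 1 library (135 without HET2). For female against male, DESeq2 called 1837 genes, no filter 2154, the version 4 form 5, and 1 to 2999 without 1 library, and of the 9 they called 1, 1, 0 and 0 to 3. The cause of these shifts was not tested.

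With the replicate block 0 genes were called between female and male libraries, against 3, and of the 9 genes 1 had an unadjusted p under 0.05 there, against 3 (1.44% and 22.7% of all genes). In KO the replicate block left 1 of the 9, *Ikbke*, at an unadjusted p under 0.05, against 4 (2.86% and 25.2% of all genes). Same-numbered pairs of KO with WT or HET libraries had an r of -0.604 to 0.563. In the deposited sex-corrected values both KO libraries lay beyond the 6 others for 6 of the 9 genes, against 1 in CPM. The 5 ratios moved by less than 1 SD of the references with a prior count of 0.5. With 2 KO libraries the spread of KO rests on 1 pair, and *Map3k14* with 6 reads in WT3 and HET3 is limited by depth.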
